A study of Mus musculus with 16 samples.

Results

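Chromatin remodellers and histone modifiers were followed in RNA of the left and right ventricles of mouse embryos labelled HLHS (hypoplastic left heart syndrome, in which the left side of the heart stays small) and of their littermate controls. The members were taken by gene symbol: class I, IIa, IIb and IV histone deacetylases (Hdac), sirtuins (Sirt), lysine demethylases (Kdm), the Kmt2 methyltransferases, Smarc subunits, chromodomain helicases (Chd) and the co-repressor Ncor1, leaving out Hdac1, Hdac2, Kdm5c, Kdm5d and Kdm6a. They were 61 of the 37991 genes counted, found by a rule that reads symbols alone. By class they were 16 Kdm, 14 Smarc, 9 Chd, 7 Sirt, 5 Kmt2, 4 class IIa Hdac, 2 class I Hdac, 2 class IIb Hdac, 1 class IV Hdac gene and Ncor1. Of these, Kdm6bos is an RNA antisense to Kdm6b, and Smarca5-ps is a pseudogene of Smarca5.

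HLHS and control embryos came from 3 litters of the C57BL/6 background, all untreated as far as the labels say, taken at embryonic stages E13.5, E14.5 and E17.5. HLHS embryos 1, 2 and 3 were from E13.5, E14.5 and E17.5 in that order, control embryo 1 was from E13.5, control embryos 2 and 3 from E14.5 and control embryos 4 and 5 from E17.5. Each of the 8 embryos gave 1 left and 1 right ventricle library, which made 16 libraries. The labels give the phenotype and no allele, and since each stage was 1 litter, stage and litter cannot be told apart. The titles of all E14.5 libraries carry a prefix that differs from that of the E13.5 and E17.5 libraries. What this prefix marks is not stated, and it cannot be told apart from the E14.5 stage and litter. Nothing in the labels says how HLHS was scored, and the smallest groups hold 1 embryo a stage, so p-values measure the spread between these few embryos.

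Chromatin remodellers are ATP-driven machines that slide or evict nucleosomes. Many Smarc proteins are subunits of the BAF complexes, Smarca1 and Smarca5 are motors of ISWI complexes, and Smarcad1 and Smarcal1 belong to neither, while Chd proteins include the motor of the NuRD complex. Deacetylases and demethylases remove marks from histone tails, and most Kmt2 enzymes write the methyl mark of active promoters and enhancers. Ncor1 brings Hdac3 to repressed genes. In the heart, BAF subunits are required for ventricle formation, and class IIa deacetylases restrain the growth program driven by MEF2 factors.

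Total counts per library ran from 17081273 to 28648645, of which members held 0.445 to 0.636%. Levels are given as CPM, the count of a gene relative to the library total after TMM scaling, and per kb of exon where genes are compared. Of the 61 members, 57 were above 1 CPM in every library and 2 were below 1 CPM in every library. Defining markers of heart muscle were abundant in all libraries: the 9 cardiomyocyte genes summed to at least 21862 CPM. The first principal component of the members held 59.2% of their variance and set the 4 E13.5 libraries, both phenotypes and both sides, at one end. In Chd4 and in all 5 Kmt2 genes each E13.5 library lay above every later one, for instance 131 to 156 CPM at E13.5 and 59.7 to 108 CPM later for Kmt2a. E13.5 had 1 control embryo and entered no test of stage.

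Per kb of exon, the members' median level was 7.97 CPM, against 5.21 CPM over all 15585 genes with a level, and 45 of the 61 lay above that median. The remodelling motors and core subunits led the order. Chd4, the ATPase of NuRD, had a median of 54.9 CPM per kb, followed by the BAF scaffold Smarcc2 with 42.8, the BAF motor Smarca4 (BRG1) with 35.7, the BAF subunit Smarce1 with 30.3, the demethylase Kdm1a (LSD1) with 26.2 and the deacetylase Hdac3 with 24.3. Each of these 6 overlapped in range with the next over the 16 libraries: the lowest Chd4 library, with 46.7, lay below the highest of Smarcc2, with 54.1. At the bottom were Kdm6bos with 0.622, Smarca5-ps with 0.0840, Chd5 with 0.0809 and Kdm4d with 0.0273 CPM per kb.

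Ncor1 had a median of 16.8 CPM per kb, and the Kmt2 genes ran from Kmt2b (10.4) through Kmt2e (9.48), Kmt2d (7.29) and Kmt2a (5.58) to Kmt2c (4.21). Among the sirtuins Sirt2 was highest with 15.6 CPM per kb and Sirt5 lowest with 3.59. Hdac3, the catalytic partner of Ncor1, varied least of all members, with 94.3 to 102 CPM over the 16 libraries, a ratio of 1.08 between highest and lowest. Smarce1 was next with a ratio of 1.16.

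In the HLHS left ventricle, 5 members rose and 3 fell relative to littermates, all by less than 1.5-fold. The BAF scaffold Smarcc1, the demethylases Kdm5b and Kdm6b, the class IIa deacetylase Hdac5 and the methyltransferase Kmt2a were higher. The mitochondrial sirtuins Sirt3 and Sirt5 and the BAF subunit Smarcd1 were lower. These 8 were 13.6% of the 59 members tested, where 12.8% of all 15979 genes tested passed the same threshold, an adjusted p under 0.05 (edgeR quasi-likelihood fit that includes the stage). Counted by direction, 6.17% of all genes were higher and 6.61% lower. The share of members that passed was thus near the background. The median log2 change was 0.06 over members and 0.01 over all genes, and 42 of the 59 members had a positive value. Among genes with at least 8000 exon bases the median was 0.06 over 27 members and 0.04 over all 2579 tested. Among shorter genes it was 0.04 over 32 members and −0.0005 over all 12790. The part of length in the members' values was not tested. The count of 8 was smaller in most fits without 1 embryo: 3 members passed without HLHS replicate 1 or any of control replicates 1 to 4, 5 passed without HLHS replicate 3, and 1 passed without HLHS replicate 2, while 8 passed without control replicate 5. Smarcd1 passed in none of these fits, so the 8 without control replicate 5 were not the same 8. With a term for the sex of the embryo 6 passed, without Kdm6b and Kmt2a. By their Xist and Ddx3y counts, HLHS embryos 1 and 2 and control embryos 2 and 5 were female and the others male. At E13.5 the HLHS embryo was female and its only littermate control male, so phenotype and sex cannot be told apart there.

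**Figure D1:**
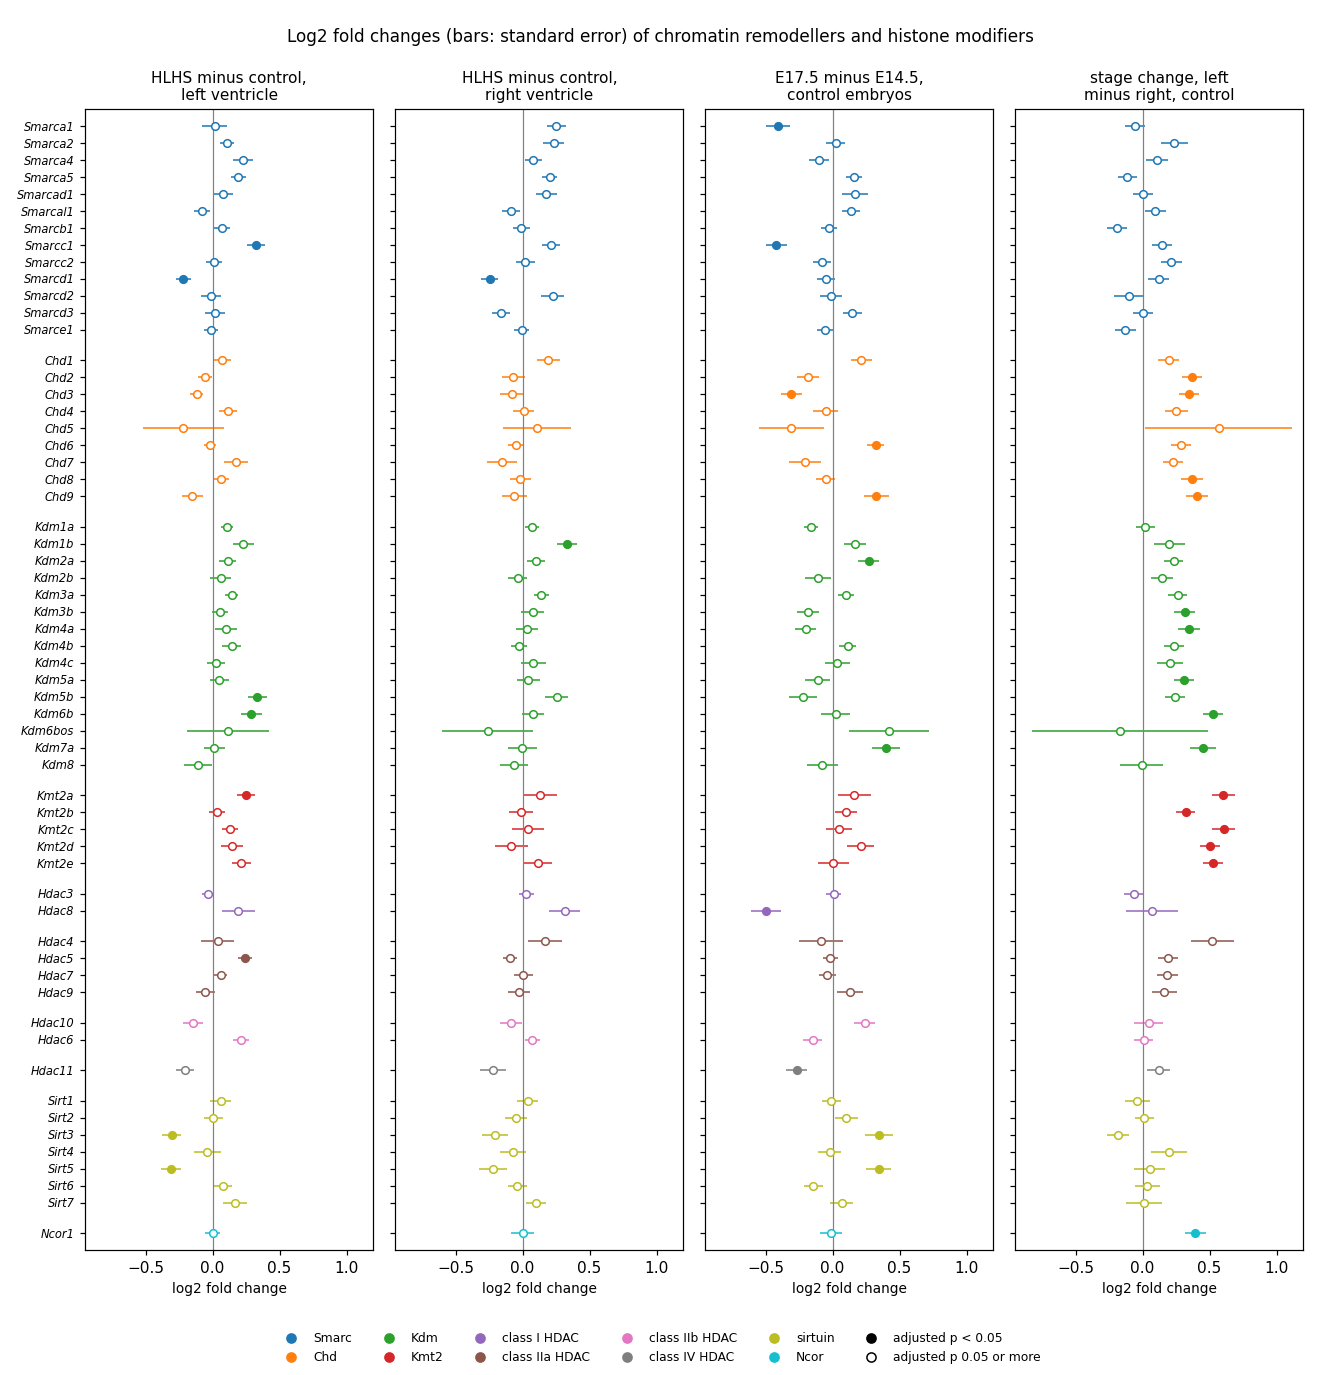
Log2 fold changes with standard errors of each tested member, by class, for HLHS minus control in the left and in the right ventricle (3 HLHS and 5 control libraries each), E17.5 minus E14.5 in control embryos with ventricles summed (2 embryos each), and that stage change in the left minus the right ventricle. Filled points passed an adjusted p of 0.05: 8 in the left ventricle, 2 in the right, and for stage 11 of the 12 that passed, because the low-count Smarca5-ps is left out; in the last panel all 5 Kmt2 points and Ncor1 are filled.

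Smarcc1 (BAF155, ENSMUSG00000032481, chromosome 9) is a core scaffold around which BAF complexes assemble. In the left ventricle it had 256, 245 and 178 CPM in HLHS embryos at E13.5, E14.5 and E17.5, against 218 CPM at E13.5, 191 and 178 CPM at E14.5 and 132 and 156 CPM at E17.5 in controls. The HLHS library was above every littermate in each of the 3 litters. On the left 15 of the 61 members lay above all littermates in 3 litters and 6 below, and on the right 13 and 3. E13.5 had 1 control, and the share over all genes was not computed. Smarcc1 was among the 15, while its groups overlap across stages. The log2 change was 0.32 ± 0.07 (SE, 3 HLHS and 5 control libraries; adjusted p = 0.0137), and without HLHS replicate 2 the call was lost (adjusted p = 0.0874).

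In the right ventricle Smarcc1 had 227, 198 and 166 CPM in HLHS embryos at E13.5, E14.5 and E17.5, against 193 CPM at E13.5, 194 and 182 CPM at E14.5 and 124 and 141 CPM at E17.5 in controls. The HLHS library was again above its littermates in 3 of 3 litters, with a log2 change of 0.21 ± 0.07 that did not pass (adjusted p = 0.0956). Its paralog Smarcc2 (BAF170) had a left ventricular log2 change of 0.01. The ratio of Smarcc1 to Smarcc2 per kb in the left ventricle was 0.654, 0.841 and 0.521 in HLHS embryos at E13.5, E14.5 and E17.5, against 0.527 at E13.5, 0.607 and 0.606 at E14.5 and 0.440 and 0.496 at E17.5 in controls. In each litter this ratio was higher in the HLHS embryo.

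Smarcd1 (BAF60A, ENSMUSG00000023018, chromosome 15), a BAF subunit that binds transcription factors, was lower in both ventricles. On the left it had 57.9, 61.8 and 58.4 CPM in HLHS embryos at E13.5, E14.5 and E17.5, against 71.3 CPM at E13.5, 69.5 and 67.6 CPM at E14.5 and 69.1 and 67.9 CPM at E17.5 in controls. On the right it had 54.0, 62.8 and 56.3 CPM in HLHS embryos, against 67.7 CPM at E13.5, 74.9 and 69.0 CPM at E14.5 and 64.2 and 68.2 CPM at E17.5 in controls. The groups did not overlap on either side. Log2 changes were −0.22 ± 0.05 on the left (adjusted p = 0.0301) and −0.25 ± 0.06 on the right (adjusted p = 0.0484). The calls were close to the threshold: leaving out any 1 library lost the left one (adjusted p 0.0532 to 0.101), and 7 of 8 such fits lost the right one. With the ventricles of each embryo summed, Smarcd1 passed with −0.24 ± 0.05 (adjusted p = 0.0149).

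Of the other Smarc genes, the motors Smarca4 (0.23 ± 0.07, adjusted p = 0.0656) and Smarca5 (0.19 ± 0.06, adjusted p = 0.0547) had positive left ventricular log2 changes that did not pass. Smarca5 (SNF2H), the ISWI motor, passed with ventricles summed at 0.18 ± 0.04 (adjusted p = 0.0243). Smarcc1 and Smarcd1 share 123 and 287 exon bases with antisense genes, whose reads cannot be told apart without strand. The Smarc values did not lie to one side: the 13 tested ran from −0.22 to 0.32 with a median of 0.02.

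The 250 bases before the start are shown for Smarcc1 and Sirt5. Both genes were called in the HLHS left ventricle and the stage comparison below, with opposite directions to each other. Sirt3 was called in the same comparisons, and its bases are not shown. The bases of 3 Kmt2 genes are shown because all 5 passed in the test below of the stage change between sides. That test was added after the values were seen, and no Kmt2 gene passed in the planned comparisons of stage or side. Sequences are from RefSeq (GRCm38.p6), read 5′ to 3′ on the gene's strand, without bases that an annotated exon overlaps. Capitals mark 3 words searched on both strands, chosen after the sequences were read: the GC box GGGCGG, the nuclear receptor word AAGGTCA and the NRF1 word GCGCATGCG.
Smarcc1 (chr9:110131774-110131979, plus strand): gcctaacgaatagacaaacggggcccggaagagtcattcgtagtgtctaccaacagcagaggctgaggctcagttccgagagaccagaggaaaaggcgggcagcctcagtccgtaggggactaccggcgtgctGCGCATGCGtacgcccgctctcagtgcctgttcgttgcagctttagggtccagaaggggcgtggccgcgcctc
Sirt5 (chr13:43365285-43365495, plus strand): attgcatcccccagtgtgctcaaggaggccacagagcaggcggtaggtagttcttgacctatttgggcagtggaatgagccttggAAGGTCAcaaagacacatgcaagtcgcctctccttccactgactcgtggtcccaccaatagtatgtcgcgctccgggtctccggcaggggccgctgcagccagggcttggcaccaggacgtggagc
Kmt2a (chr9:44881297-44881539, minus strand): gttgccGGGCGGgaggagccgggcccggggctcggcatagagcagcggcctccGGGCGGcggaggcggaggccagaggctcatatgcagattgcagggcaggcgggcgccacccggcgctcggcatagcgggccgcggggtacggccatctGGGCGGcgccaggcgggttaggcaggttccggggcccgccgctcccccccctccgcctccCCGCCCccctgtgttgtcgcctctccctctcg
Kmt2c (chr5:25498784-25499033, minus strand): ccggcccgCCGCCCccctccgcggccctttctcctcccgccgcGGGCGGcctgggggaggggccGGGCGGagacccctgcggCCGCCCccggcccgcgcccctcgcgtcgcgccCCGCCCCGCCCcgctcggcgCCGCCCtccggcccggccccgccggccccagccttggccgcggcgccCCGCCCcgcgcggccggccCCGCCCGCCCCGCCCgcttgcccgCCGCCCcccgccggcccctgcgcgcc
Kmt2d (chr15:98871206-98871455, minus strand): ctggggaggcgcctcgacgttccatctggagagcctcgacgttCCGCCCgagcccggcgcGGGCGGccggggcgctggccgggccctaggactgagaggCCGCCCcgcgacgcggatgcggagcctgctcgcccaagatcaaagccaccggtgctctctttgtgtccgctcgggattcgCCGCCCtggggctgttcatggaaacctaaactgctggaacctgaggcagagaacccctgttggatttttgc

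Kmt2a held 4 GC boxes, Kmt2d 4 and Kmt2c 12, some of which overlap each other, and G and C made up 77.4, 67.6 and 91.6% of their bases. Of all 32851 promoters in the table, 32.7% held a GC box in the 250 bases, as did 41 of the 62 promoters of members (45 members had an entry, some with several starts). Smarcc1 held the NRF1 word, found in 0.922% of all promoters at that length, and Sirt5 held AAGGTCA, found in 3.56%. Since the words were chosen after these sequences were read, finding them here is no test. In the full 250 bases, 3 of the 62 member promoters held the NRF1 word and 1 held AAGGTCA. Over all promoters the shares were 1.45 and 4.08%. Neither Smarcc1 nor Sirt5 held a GC box in the bases shown. No word overlapped another kind of word. Kmt2b and Kmt2e had no entry.

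Kdm5b (ENSMUSG00000042207) removes the methyl mark of active promoters. In the left ventricle it had 103, 90.0 and 90.8 CPM in HLHS embryos at E13.5, E14.5 and E17.5, against 86.2 CPM at E13.5, 74.5 and 71.3 CPM at E14.5 and 60.7 and 74.7 CPM at E17.5 in controls. The 2 groups did not overlap. The log2 change was 0.33 ± 0.07 (adjusted p = 0.0158), and it was lost only without HLHS replicate 2 (adjusted p = 0.0666) among the fits that left out 1 library. In the right ventricle Kdm5b had 103, 114 and 96.3 CPM in HLHS embryos, against 99.0 CPM at E13.5, 99.7 and 88.0 CPM at E14.5 and 65.4 and 82.0 CPM at E17.5 in controls, with a log2 change of 0.25 ± 0.09 (adjusted p = 0.110).

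Kdm6b, which removes the repressive methyl mark written by Polycomb, had 121.4, 82.1 and 90.6 CPM in HLHS left ventricles at E13.5, E14.5 and E17.5, against 116 CPM at E13.5, 62.8 and 57.9 CPM at E14.5 and 68.2 and 79.3 CPM at E17.5 in controls. It was above its littermates in each litter, though by little at E13.5. The log2 change was 0.29 ± 0.08 (adjusted p = 0.0371). The call was lost in 5 of 8 fits without 1 library, without HLHS replicates 2 or 3 or control replicates 2, 3 or 4, with adjusted p up to 0.228, and also with a sex term (adjusted p = 0.0570) and with ventricles summed, where the log2 change was 0.17 (adjusted p = 0.136). Kdm6b shares 286 exon bases with the antisense Kdm6bos, which stayed at or below 0.821 CPM in every library.

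Kmt2a (MLL1) was the only Kmt2 gene past the threshold in the HLHS left ventricle, with 156, 79.2 and 108 CPM in HLHS embryos at E13.5, E14.5 and E17.5, against 140.4 CPM at E13.5, 69.2 and 59.7 CPM at E14.5 and 83.3 and 94.9 CPM at E17.5 in controls. Its log2 change was 0.25 ± 0.07 (adjusted p = 0.0374), and 7 of 8 fits without 1 library lost it, all but the one without control replicate 5. It was also lost with a sex term (adjusted p = 0.0543) and with ventricles summed (0.17, adjusted p = 0.233). All 5 Kmt2 genes had positive values on the left, from 0.03 to 0.25, and 3 of 5 on the right, from −0.08 to 0.13. In the E14.5 controls these genes were lower on the left, with a median left minus right log2 difference of −0.50 and −0.34. The part of this in the HLHS values was not tested. Kmt2a shares 378 exon bases with an antisense gene.

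Of the 15 Kdm genes tested, which include the antisense RNA Kdm6bos, 14 had positive left ventricular values. Their median log2 change was 0.11, against 0.01 over all genes and 0.04 over all genes with at least 8000 exon bases. Kdm6b and Kdm5b were the 2 that passed. In the right ventricle 10 of 15 were positive and 1 passed, Kdm1b.

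Kdm1b (LSD2), an amine oxidase that demethylates histones in gene bodies, rose in the HLHS right ventricle. It had 26.1, 26.0 and 32.0 CPM in HLHS embryos at E13.5, E14.5 and E17.5, against 20.5 CPM at E13.5, 22.6 and 22.6 CPM at E14.5 and 23.3 and 23.8 CPM at E17.5 in controls. No HLHS library fell within the control range. The log2 change was 0.33 ± 0.08 (adjusted p = 0.0342), though 7 of 8 fits without 1 library lost the call. On the left it had 24.2, 27.3 and 31.2 CPM in HLHS embryos, against 19.9 CPM at E13.5, 25.2 and 21.1 CPM at E14.5 and 27.9 and 27.1 CPM at E17.5 in controls, a log2 change of 0.23 ± 0.08 (adjusted p = 0.0824). With ventricles summed it passed at 0.27 ± 0.06 (adjusted p = 0.0189). Kdm1b shares 505 exon bases with the antisense gene Dek, whose reads cannot be told apart without strand.

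Hdac5 (ENSMUSG00000008855, chromosome 11), a signal-responsive class IIa deacetylase, had 222, 184 and 223 CPM in HLHS left ventricles at E13.5, E14.5 and E17.5, against 188 CPM at E13.5, 170.3 and 165 CPM at E14.5 and 176 and 174 CPM at E17.5 in controls. It was above its littermates in 3 of 3 litters, with a log2 change of 0.24 ± 0.05 (adjusted p = 0.0170). Without control replicate 1 or HLHS replicate 1 or 3 the call was lost, 3 of 8 such fits (adjusted p up to 0.0550). With ventricles summed Hdac5 did not pass either (0.07, adjusted p = 0.325). In the right ventricle it had 186, 180.2 and 171 CPM in HLHS embryos, against 209 CPM at E13.5, 189.6 and 193 CPM at E14.5 and 173 and 179 CPM at E17.5 in controls. There the HLHS library was below its littermates in 3 of 3 litters, with a log2 change of −0.09 (adjusted p over 0.05). The difference of the HLHS effect between the sides, left minus right, was 0.33 ± 0.10 for Hdac5 and did not pass (unadjusted p = 0.00514, adjusted p = 0.270). The other class IIa genes Hdac4, Hdac7 and Hdac9 had left ventricular values of 0.04, 0.06 and −0.06.

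Sirt3 and Sirt5 act inside mitochondria, Sirt3 as the main deacetylase there and Sirt5 as a remover of succinyl and related groups. Sirt3 had 30.7, 38.4 and 51.1 CPM in HLHS left ventricles at E13.5, E14.5 and E17.5, against 39.4 CPM at E13.5, 47.8 and 51.4 CPM at E14.5 and 62.3 and 55.1 CPM at E17.5 in controls. Sirt5 had 15.2, 18.3 and 22.5 CPM in HLHS left ventricles at the same stages, against 20.1 CPM at E13.5, 21.7 and 21.8 CPM at E14.5 and 28.7 and 27.0 CPM at E17.5 in controls. In each litter both genes were lower in the HLHS embryo than in any littermate. Log2 changes were −0.30 ± 0.07 for Sirt3 (adjusted p = 0.0238) and −0.31 ± 0.07 for Sirt5 (adjusted p = 0.0227). Each was lost in 6 of 8 fits without 1 library (adjusted p up to 0.124 and 0.0723), namely without control replicates 1 to 4 or HLHS replicates 1 or 2.

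In the right ventricle Sirt3 had 40.2, 44.4 and 47.4 CPM in HLHS embryos at E13.5, E14.5 and E17.5, against 47.0 CPM at E13.5, 41.0 and 49.9 CPM at E14.5 and 64.9 and 57.1 CPM at E17.5 in controls. Sirt5 had 18.5, 21.5 and 22.0 CPM in HLHS right ventricles, against 23.3 CPM at E13.5, 20.2 and 24.4 CPM at E14.5 and 29.4 and 25.5 CPM at E17.5 in controls. At E14.5 the HLHS library lay between its littermates for both genes. Their right ventricular log2 changes of −0.21 and −0.22 did not pass. The mitochondrial Sirt4 had a left ventricular value of −0.04, and of the 7 sirtuins only Sirt3 and Sirt5 passed. Sirt3 shares 418 exon bases with an antisense gene.

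**Figure D2:**
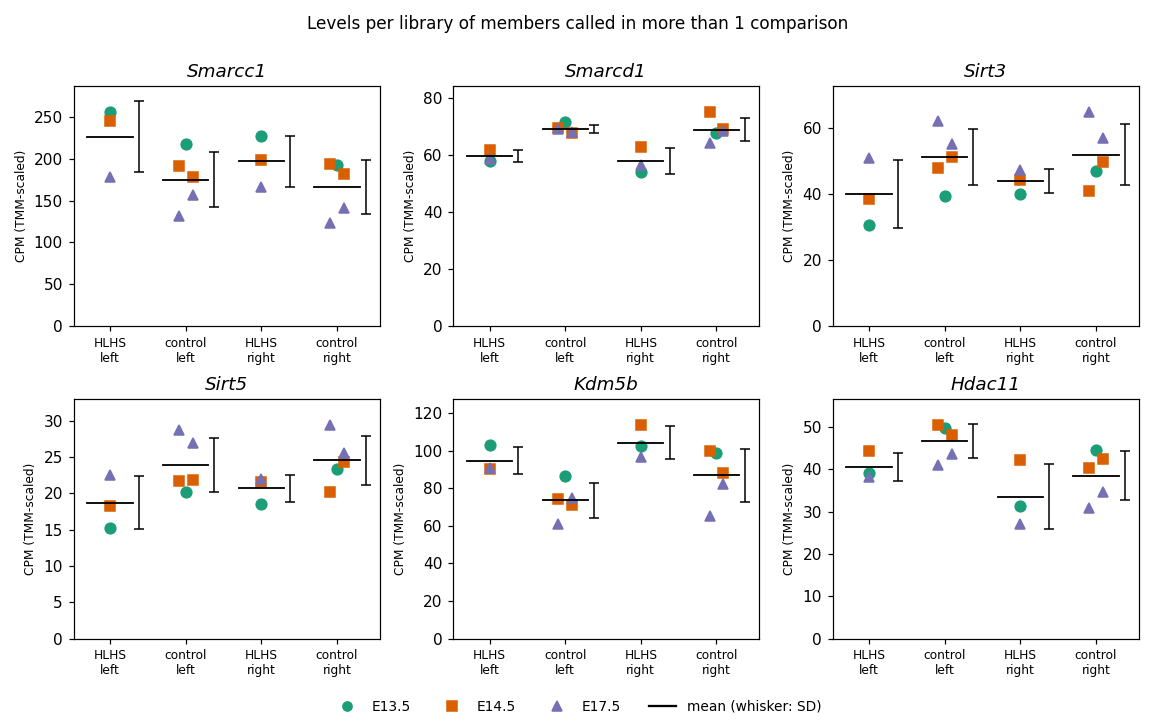
CPM per library of the 6 members called in more than 1 comparison, in HLHS and control left ventricles and HLHS and control right ventricles; symbols give the stage, lines the group mean and whiskers the SD over 3 HLHS or 5 control libraries. Smarcd1 libraries of HLHS embryos sit at 54.0 to 62.8 CPM, below all control libraries (64.2 to 74.9 CPM), while for Smarcc1, Sirt3 and Sirt5 stages differ within each group.

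Markers of other cell types moved beside these changes. In the HLHS left ventricle 8 of 9 erythroid genes rose, with a summed level of 757 to 1334 CPM in HLHS against 476 to 841 CPM in control libraries. There 3 of 9 cardiomyocyte markers fell (summed 22701 to 27567 CPM in HLHS, 22575 to 34845 CPM in control), 4 of 8 mesenchyme markers fell (3643 to 4429 CPM in HLHS, 4214 to 5462 CPM in control), 2 of 8 endothelial markers fell, of 4 smooth muscle markers 2 rose and 1 fell, and 1 of 10 proliferation markers rose. None of these markers was at 0 in all libraries of a group. Their part in the members' values was not tested, and in bulk tissue fewer cells of a type and less RNA per cell cannot be told apart.

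In the HLHS right ventricle 2 of 60 members passed, Kdm1b higher and Smarcd1 lower, which is 3.33%, against 6.61% of the 16142 genes tested (3.56% higher, 3.05% lower). Members had a median log2 change of 0.01, the same as all genes to that precision. Of the markers there, 2 of 4 smooth muscle and 1 of 6 macrophage genes rose, and 2 of 9 cardiomyocyte and 1 of 8 endothelial genes fell. Their part in the members' values was not tested. With a term for the sex of the embryo both member calls were lost (0 members), and without stage as a term no member passed in either ventricle.

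With both ventricles of an embryo summed, 8 members passed of 60, where 13.8% of 17429 genes passed (6.85% higher, 6.93% lower). These were Kdm1b, Kdm5b, Smarca5, Smarca5-ps and Smarcc1 higher, and Sirt3, Sirt5 and Smarcd1 lower. Smarca5-ps rests on few reads, 24, 35 and 11 counts in HLHS right ventricles at E13.5, E14.5 and E17.5, against 2 at E13.5, 20 and 12 at E14.5 and 4 and 6 at E17.5 in control right ventricles. It is 96.8% identical to Smarca5 over 3163 bases, so the counting could exchange reads between them, and its fitted changes are uncertain.

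The difference in HLHS effect between left and right ventricles, tested on the 16 libraries together in a fit blocked by embryo, passed for 0 of 60 members in edgeR and 0 in DESeq2. The background was 0.0182% of 16508 genes. At an unadjusted p under 0.05 there were 4 members (6.67%), where 8.55% of all genes had such a p: Hdac5 (0.33), the CHARGE syndrome helicase Chd7 (0.36 ± 0.12), Smarca1 (−0.23 ± 0.09) and the BAF subunit Smarcd2 (−0.22 ± 0.10). Changes seen past the threshold in one ventricle are therefore not shown to be absent from the other.

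Genes that work with the members, 99 in 9 lists, gave 8 higher and 2 lower of 97 tested in the HLHS left ventricle (10.3%), against 12.8% of all genes. Of 19 Polycomb genes Phc1 (0.34 ± 0.08), Phc2 (0.25 ± 0.05) and Ezh2 (0.19 ± 0.05), the methyltransferase whose mark Kdm6b removes, rose. The acetyltransferase Ep300 (0.20 ± 0.05), the NuRD subunit Mta1 (0.19 ± 0.05), the Kmt2 partner Men1 (0.23 ± 0.06), Ehmt2 (0.19 ± 0.05) and the co-repressor partner Tbl1xr1 (0.31 ± 0.07) rose as well. Smyd1, a methyltransferase of striated muscle (−0.32 ± 0.08), and Mef2c, a target of class IIa deacetylases (−0.22 ± 0.05), fell. None of 18 other BAF subunits and none of 7 DNA methylation genes passed. In the right ventricle 0 rose and 3 fell: Dpf3 (−0.44 ± 0.10), a muscle-enriched BAF subunit, Smyd1 (−0.29 ± 0.07) and Mef2d (−0.28 ± 0.07).

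Sap130, a subunit of a Sin3 histone deacetylase complex, fell by 0.35 ± 0.08 on the left (adjusted p = 0.0230) and by 0.42 ± 0.10 on the right (adjusted p = 0.0416) on the log2 scale. That it is mutated in this mouse line comes from the published study and not from the labels. The labels do not say whether Sap130 alone was mutated. Which embryo carried which allele is not in the labels.

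Between the sides of control hearts, 2 of 60 members passed (3.33%), where 6.10% of 16238 genes did (2.09% higher on the left, 4.01% lower). Of the markers, 3 of 10 proliferation and 1 of 6 epicardial genes were higher on the left, and 3 of 5 atrial, 2 of 9 cardiomyocyte, 1 of 8 mesenchyme, 1 of 6 macrophage and 1 of 4 smooth muscle genes lower. Their part in the members' values was not tested. Hdac11, the class IV deacetylase, was higher on the left in 5 of 5 control embryos, with left minus right differences in log2 CPM of 0.15 at E13.5, 0.33 and 0.19 at E14.5 and 0.42 and 0.33 at E17.5. The fitted difference was 0.28 ± 0.05 (adjusted p = 0.0125), and it held in all 5 fits that left out 1 embryo. In HLHS embryos the differences were 0.31, 0.07 and 0.49 at E13.5, E14.5 and E17.5, a fitted 0.31 ± 0.10 (adjusted p = 0.157).

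Hdac11 was also below every littermate in the HLHS left ventricle in 3 of 3 litters, as 1 of 6 such members, without passing. It had 39.0, 44.2 and 38.2 CPM in HLHS left ventricles at E13.5, E14.5 and E17.5, against 49.7 CPM at E13.5, 50.5 and 48.2 CPM at E14.5 and 41.1 and 43.7 CPM at E17.5 in controls, a log2 change of −0.21 ± 0.07 (adjusted p = 0.0682). Hdac11 shares 594 exon bases with an antisense gene.

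Kdm5b was lower on the left in 5 of 5 control embryos, by −0.23 ± 0.06 (adjusted p = 0.0329). The call was lost without control replicate 1, 2, 3 or 5 (adjusted p up to 0.158). Ncor1 had its smallest p of the comparisons planned between control sides, at −0.05 ± 0.07 (adjusted p = 0.726), and among class IIb deacetylases Hdac6 came closest, at 0.21 ± 0.06 in the HLHS left ventricle (adjusted p = 0.0539). Between the sides of HLHS hearts 0 of 60 members passed in edgeR, 6 (10%) had an unadjusted p under 0.05, where 16.0% of all genes did, and the background at the adjusted threshold was 4.04% of 15771 genes (1.15% higher on the left, 2.89% lower).

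From E14.5 to E17.5 in controls, 6 members rose and 6 fell. They were 20% of the 60 tested, fewer than the 30.0% of all 16823 genes that passed (15.8% higher, 14.1% lower). For this comparison the counts of both ventricles of an embryo were summed, with 2 embryos a stage, and values below are CPM of the summed counts.

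Of the Smarc genes 3 fell and none rose. Smarcc1 had 129 and 149 CPM in E17.5 embryos, against 192 and 179 CPM in E14.5 embryos, a log2 change of −0.42 ± 0.08 (adjusted p = 0.00972). Smarca1 (SNF2L, X-linked), an ISWI motor, had 51.3 and 60.5 CPM in E17.5 embryos, against 73.7 and 74.2 CPM in E14.5 embryos, −0.41 ± 0.09 (adjusted p = 0.0168). Both calls held in each fit without 1 embryo. Smarca5-ps, with 2 to 6 counts per library in E17.5 and 4 to 20 in E14.5 embryos, had −1.60 ± 0.38 (adjusted p = 0.0203). Smarca5 itself had a value of 0.16 that did not pass.

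The helicases went both ways. Chd6 had 123 and 125 CPM in E17.5 embryos, against 103.5 and 94.3 CPM in E14.5 embryos, 0.32 ± 0.06 (adjusted p = 0.0107). Chd9 had 46.6 and 54.7 CPM in E17.5 embryos, against 41.1 and 39.6 CPM in E14.5 embryos, 0.33 ± 0.09 (adjusted p = 0.0393). Chd3, an alternative motor of NuRD, had 101 and 112 CPM in E17.5 embryos, against 139 and 125 CPM in E14.5 embryos, −0.31 ± 0.08 (adjusted p = 0.0248).

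Of the deacetylases, Hdac8 (class I, X-linked) had 6.65 and 6.01 CPM in E17.5 embryos, against 9.16 and 8.69 CPM in E14.5 embryos, −0.50 ± 0.11 (adjusted p = 0.0175). Hdac11 had 36.1 and 39.0 CPM in E17.5 embryos, against 45.0 and 45.4 CPM in E14.5 embryos, −0.27 ± 0.08 (adjusted p = 0.0379). No E17.5 embryo reached the E14.5 range in either gene.

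Of the mitochondrial sirtuins Sirt3 and Sirt5 rose, and Sirt4 had a log2 change of −0.02 that did not pass. Sirt3 had 64.2 and 56.1 CPM in E17.5 embryos, against 44.1 and 50.6 CPM in E14.5 embryos, 0.34 ± 0.10 (adjusted p = 0.0443). Sirt5 had 29.3 and 26.2 CPM in E17.5 embryos, against 20.8 and 22.9 CPM in E14.5 embryos, 0.34 ± 0.09 (adjusted p = 0.0329). Smarcc1 was thus higher in the HLHS left ventricle and lower at the later stage, and Sirt3 and Sirt5 lower in the one and higher in the other. The comparisons share the control libraries, so these values stand side by side and are no independent evidence of each other.

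Among the demethylases, Kdm7a, which removes repressive methyl marks, had 40.0 and 47.6 CPM in E17.5 embryos, against 35.1 and 31.4 CPM in E14.5 embryos, 0.40 ± 0.11 (adjusted p = 0.0304). Kdm2a, which binds CpG islands, rose by 0.27 ± 0.08 (adjusted p = 0.0443). Kdm7a and the helicase Chd9 share 287 and 196 exon bases with antisense genes. Leaving out 1 embryo lost 10 of the 12 stage calls in at least 1 of 4 fits, all but those of Smarcc1 and Smarca1. A filter of at least 1 CPM also lost Kdm2a (adjusted p = 0.0556) and Sirt3 (adjusted p = 0.0507). Chd6, Chd9, Kdm7a and Kdm2a passed in left ventricles alone but not in right ones, where they had 0.18, 0.12, 0.17 and 0.15. Sirt3, Sirt5, Hdac8, Hdac11 and Smarca5-ps also missed the threshold in right ventricles alone, and Chd3 and Sirt3 in left ones.

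Markers moved with stage too: 6 of 9 cardiomyocyte, 3 of 8 mesenchyme and 1 of 6 epicardial genes rose, and 4 of 10 proliferation, 4 of 9 erythroid, 2 of 6 macrophage and 1 of 5 atrial genes fell. Of 8 endothelial genes 2 rose and 1 fell, and of 4 smooth muscle genes 1 rose and 1 fell. The part of these markers in the members' values was not tested. Among the 97 partner genes 11 rose and 7 fell (18.6%). Among them were Tbl1xr1 (−0.50 ± 0.07), the acetyltransferase Kat2b (0.45 ± 0.06), and the Polycomb genes Cbx7 (−0.58 ± 0.16) and Phc1 (−0.54 ± 0.07).

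The stage difference looked unlike in the 2 ventricles. In left ventricles of controls alone, 14 members rose and 5 fell from E14.5 to E17.5 (background 37.8% of 15441 genes, 20.1% higher and 17.7% lower), and 4 of the 5 Kmt2 genes rose, Kmt2a by 0.46 ± 0.09, Kmt2d by 0.46 ± 0.09, Kmt2c by 0.35 ± 0.07 and Kmt2b by 0.25 ± 0.07. In right ventricles 0 rose and 5 fell (background 18.6% of 15624 genes, 9.74% higher and 8.85% lower), and Kmt2 values ran from −0.25 to −0.03.

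This difference was then tested, a comparison added after the values were seen, over the 8 libraries of the 4 control embryos with the embryo as a block. The stage change was more positive on the left than on the right for 15 of 60 members and more negative for none. That is 25%, where 5.17% of all 16021 genes passed (3.86% higher, 1.31% lower). All 5 Kmt2 genes passed, Kmt2c with 0.60 ± 0.09 (adjusted p = 0.00590), Kmt2a with 0.60 ± 0.09, Kmt2e with 0.52 ± 0.07 and Kmt2d with 0.50 ± 0.07 (adjusted p = 0.00558 each), and Kmt2b with 0.32 ± 0.07 (adjusted p = 0.0309). Ncor1 passed with 0.39 ± 0.08 (adjusted p = 0.0189). Of the helicases Chd2, Chd3, Chd8 and Chd9 passed, and of the demethylases Kdm3b, Kdm4a, Kdm5a, Kdm6b and Kdm7a. No Smarc, Hdac or Sirt gene passed.

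The values by embryo show where the difference lies. Kmt2a had left minus right differences in log2 CPM of 0.22 and 0.06 in E17.5 controls, against −0.53 and −0.39 in E14.5 controls. Kmt2c had 0.28 and 0.09 in E17.5 controls, against −0.50 and −0.34 in E14.5 controls. Ncor1 had 0.17 and 0.11 in E17.5 controls, against −0.26 and −0.24 in E14.5 controls. The E14.5 control embryos thus had less of these RNAs on the left, while the HLHS embryos at E13.5, E14.5 and E17.5 had 0.06, 0.05 and −0.01 for Kmt2a.

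**Figure D3:**
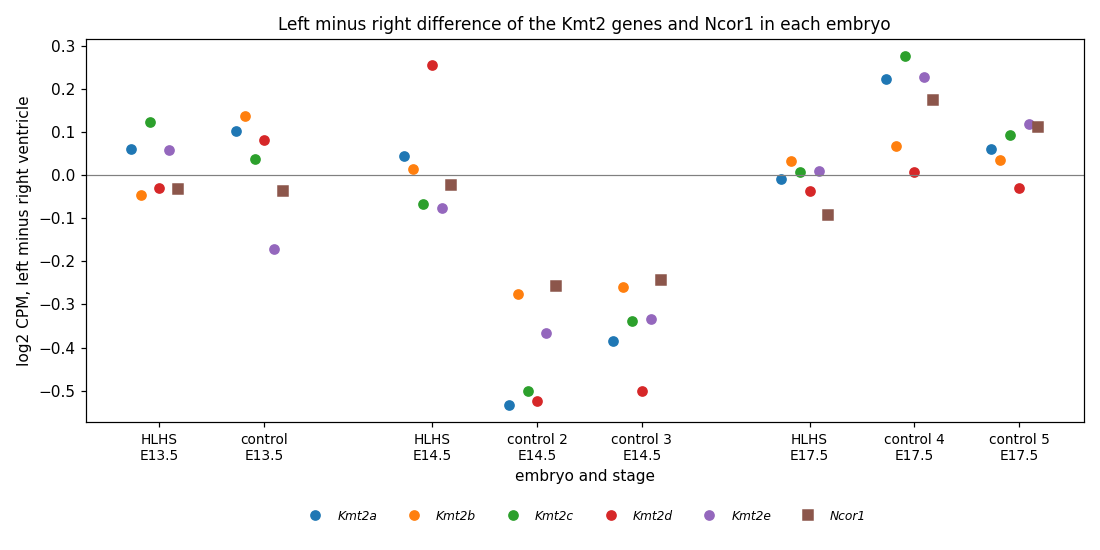
Difference in log2 CPM between the left and the right ventricle of each embryo for the 5 Kmt2 genes (circles) and Ncor1 (squares), by stage, HLHS before control. All 6 genes lie between −0.53 and −0.24 in the 2 control embryos of E14.5, and between −0.17 and 0.28 in every other embryo.

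Transcript length moved with this result. Among genes with at least 8000 exon bases, 422 were higher and 7 lower of 2584 tested (16.6%), with a median of 0.18, and 13 of the 27 members that long passed. Among shorter genes 2.98% of 12843 passed, with a median of −0.03, and 2 of 33 members did. The left minus right median over all long genes was −0.14 and −0.11 in the E14.5 controls, and 0.08 and 0.02 in the E17.5 controls. Of the markers, 1 of 9 cardiomyocyte and 1 of 8 endothelial genes were higher, and 2 of 10 proliferation, 1 of 5 atrial and 1 of 4 smooth muscle genes lower. The part of length and of these markers in the members' values was not tested. Partner genes showed the same pattern, 21 higher and 0 lower of 97 (21.6%), among them the acetyltransferases Crebbp (0.56 ± 0.08) and Kat6a (0.55 ± 0.07) and the DNA demethylase Tet1 (0.42 ± 0.09).

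**Figure D4:**
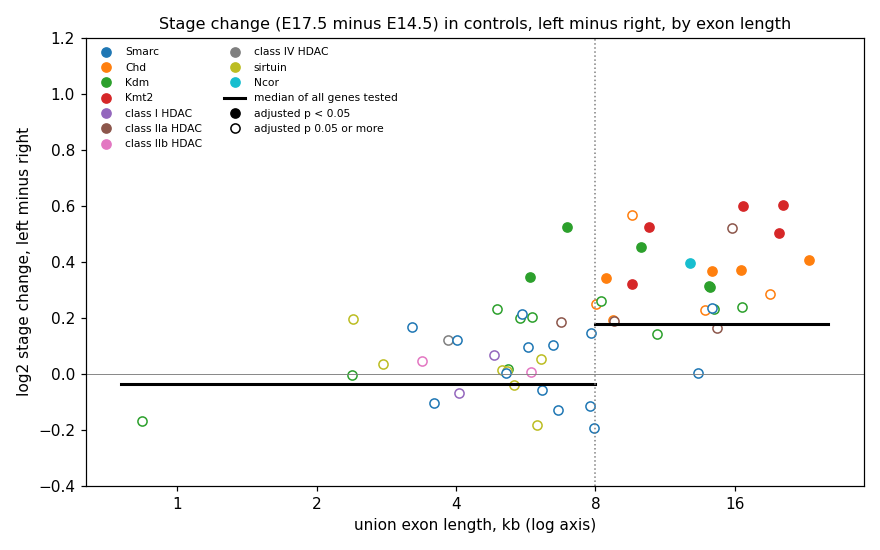
Stage change (E17.5 minus E14.5) in the left minus the right ventricle of controls, in log2, against union exon length in kb on a log axis, for 60 members coloured by class. Filled points passed an adjusted p of 0.05, and black lines give the median of all genes tested on each side of 8000 bases (0.18 and −0.03); 13 of 27 long and 2 of 33 short members are filled.

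The calls rested on few embryos. Without control replicate 4 none of the 15 passed, without control replicate 5 only Kmt2a and Kmt2c did, and without control replicate 3 there were 21. Without the embryo block none passed, and DESeq2 called 6: Kdm6b, Kmt2a, Kmt2c, Kmt2d, Kmt2e and Ncor1. With DESeq2's size factors in edgeR 12 passed, without Kdm3b, Kdm4a and Kdm5a. Some of these genes, among them Chd2, Chd8 and Kdm3b, overlap antisense genes in their exons.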

How the data were processed

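Total RNA of 16 ventricles was sequenced after TruSeq library preparation, per the labels' protocols. The deposited values are raw counts per gene. The submitters' processing notes name TopHat2 2.0.9, HTSeq 0.5.4p5, Picard, edgeR 3.4.2 and the mm9 build, while the gene annotation, the strand setting and the handling of duplicates were not given in the sources used here. Gene lengths and overlaps are from GENCODE M21 (GRCm38), so no coordinates of the counts are given.

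Counts were tested with edgeR 4.0.16 in R 4.3.3 (TMM scaling, genes kept by filterByExpr at 10 counts or more, quasi-likelihood test, Benjamini-Hochberg adjustment over all genes tested, threshold 0.05). SE is the log2 change divided by the square root of F. HLHS and control were compared within a ventricle with stage as a term, sides and differences between sides with the embryo as a block, and stages on ventricles summed per embryo. DESeq2 1.42.0, its size factors in edgeR, no count filter, keeping genes with 1 CPM or more in 3 libraries (2 summed embryos for stage), a sex term, no block, single ventricles and leaving out each replicate were alternatives. The test of stage between sides and the promoter words were chosen after values or sequences were seen.

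Both ventricles of an embryo carry its number in the titles. Differences between littermate controls correlated between left and right ventricles with r = 0.433 at E14.5 and 0.544 at E17.5 across 11647 genes. Replicates differed by more than sampling noise (chi-square per degree of freedom 7.51 to 14.9). The members and lists were chosen with earlier results of these data known. Members past the threshold in a planned comparison are named, and in a class with none the one with the smallest p. 1 gene that matches the symbol rule is not reported here and is in no count of members. The fits were tested on simulated data.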

Additional observations from a re-analysis of the deposited data

Results flagged for a closer look

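Chd3 had 179.8 CPM in the left ventricle of control embryo 1 (E13.5), against 100.7 to 119.8 CPM in the other control left ventricles. It was the only one of 36 groups of values checked in which a library stood this far from the rest. For like replicates chance gives about 1 in 20 per group, so 1 among 36 is not unusual. This library is the only one of E13.5 in its group. Chd3 was highest at E13.5 in the other groups too, with 176 CPM in control right, 160 in HLHS left and 149 in HLHS right ventricles. Stage and an odd library cannot be told apart within the group.

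The stage change of 15 members differed between the ventricles of controls, given as left minus right on the log2 scale. They were 25% of the members tested. Of all genes tested 5.17% passed, and 16.6% of those with at least 8000 exon bases. The test was added after the values were seen and rests on 2 control embryos a stage. Among the Kmt2 genes the difference was 0.60 for Kmt2a, 0.32 for Kmt2b, 0.60 for Kmt2c, 0.50 for Kmt2d and 0.52 for Kmt2e. Among the demethylases it was 0.31 for Kdm3b, 0.35 for Kdm4a, 0.31 for Kdm5a, 0.53 for Kdm6b and 0.45 for Kdm7a. Among the helicases it was 0.37 for Chd2, 0.34 for Chd3, 0.37 for Chd8 and 0.41 for Chd9. For Ncor1 it was 0.39.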

How the results depend on the processing

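Each of the 39 member results was recomputed under its alternatives, 423 values in all. None reversed its direction, 249 stayed on the same side of the threshold, 173 missed it, and 1 had no adjusted p in DESeq2 (Smarca5-ps). Without a replicate block, 0 members passed in the HLHS left ventricle (8 with it), 0 in the HLHS right ventricle (2 with it), 1 between control sides (2 with it) and 0 for the stage change between sides (15 with it). The shared embryo or litter is part of the design, and the cause of these losses was not tested. Between HLHS sides the planned stage term equals the embryo block, so a fit with no term was added after the data were seen. No paired analysis was possible for E17.5 against E14.5 because each embryo has 1 stage.

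In the HLHS right ventricle a sex term left 0 members, no count filter gave 4 and summed ventricles gave 8. Without a count filter 1 member passed between HLHS sides and 9 for the stage change between sides, for which DESeq2 gave 6. The stage comparison gave 19 members in left ventricles and 5 in right ventricles, against 12 with ventricles summed. Leaving out 1 replicate gave 1 to 8 members in the HLHS left ventricle, 0 to 2 in the right, 0 for the difference between them, 1 to 2 between control sides, 0 to 1 between HLHS sides, 9 to 11 for stage and 0 to 21 for stage between sides. With 1 embryo left at a stage, its spread is assumed to be that of the others.

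Over all genes, the counts without a block were 1 in the HLHS left ventricle (2043 with it), 0 in the right (1067), 9 for the difference between them (3), 4 between HLHS sides (637) and 0 for stage between sides (829). No alternative moved the median change of all genes by more than 0.0235. Depth limits Kdm4d, Chd5, Kdm6bos and Smarca5-ps, the members lowest per kb.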
